A study of Mus musculus with 16 samples.

Results

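The effect of a spinal cord injury was examined in hamstring muscle that received saline and no toxin. The comparison set 4 arrays of the group SCI+Saline against 4 arrays of the group Sham+Saline, which are 8 of the 16 arrays of the series. The members were taken by their sample titles, and this choice was made with earlier results of these data known. SCI+Saline mice had a spinal cord injury (SCI) at the lower thoracic spine (between vertebrae T12-13) and a saline injection into the hamstring muscle. Sham+Saline mice had sham surgery and the same injection. Both groups were female mice, and whole hamstring muscle was taken 2 days after surgery. Strain, age and the number of animals per sample are not given in the labels, so the p-values below measure the spread between these samples. The other groups of the series received the myotoxin cardiotoxin (CDTX), which kills muscle fibres, in place of saline. The series asks which genes accompany neurogenic heterotopic ossification, the growth of bone inside muscle that can follow cord or brain injury, and per its design neither saline group forms such bone. Biotin-labelled RNA was measured on an Illumina expression BeadChip, and levels are given as log2 normalized intensity.

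The motor nerve, through the activity it drives, keeps a muscle fibre in its adult state. A fibre that is denervated makes acetylcholine receptors along its whole length, switches on the myogenic transcription factors myogenin and MyoD, and degrades its contractile proteins through ubiquitin ligases and the proteasome.

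The saline groups differed in brightness before normalization. Mean raw intensity lay between 321.3 and 334.9 in the SCI+Saline arrays and between 230.5 and 277 in the Sham+Saline arrays (exact permutation test, two-sided, p = 0.0286, the smallest that 4 against 4 can give). The number of probes detected, at 11555 to 12787 and 11114 to 11850, overlapped (exact permutation test, p = 0.143). The arrays correlated at 0.968 to 0.982 within SCI+Saline, at 0.971 to 0.984 within Sham+Saline and at 0.932 to 0.958 between them. All SCI arrays lay on 1 slide and all sham arrays on the other, so surgery and slide cannot be told apart, and this holds for every difference below. Sham+Saline replicate 4 stood apart from the other Sham+Saline arrays in inflammation genes, and values without it are given where it moved a result of those genes most. Muscle fibre markers were measured throughout: 10 of 10 were kept, their summed intensity was 115585 to 132273 in SCI+Saline and 127580 to 137391 in Sham+Saline, and 1 of them (Myh1) was called, or 0 under median scaling. In these bulk samples fewer cells of a type and less RNA per cell cannot be told apart.

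A gene is called higher or lower here when its adjusted p from limma, with Benjamini-Hochberg adjustment over all kept probes, was under 0.05, and each gene is represented by its brightest kept probe. Of 10952 genes, 1608 were higher in SCI+Saline (14.7%) and 1734 were lower (15.8%), which makes 3342 called genes (30.5%), and 814 of them (7.43% of all) differed by at least 1 log2. Among probes 4350 of 14763 were called (29.5%). The median log2 fold change of all genes was -0.02, with -0.88 at the 5% and 0.89 at the 95% quantile. The shares 14.7% and 15.8% are the background for every gene list of saline muscle below, for the counts after quantile normalization. The share of higher calls depended on the scaling: among called probes it was 50.3% after quantile normalization and 86.4% after scaling each array to the same median, which moved the median of all probes to 0.17. Directions are therefore relative to the middle of all probes, and the counts under median scaling are given beside those of a list that it changed. Those counts have another background, since median scaling called 4436 of 14763 probes higher and 696 lower. Counts of 0 to 2 genes in a list moved by up to 3 genes with single arrays left out; for larger counts, arrays that moved them by over 1.5 times are named. For 950 called genes with another kept probe, that probe had the same direction in 816 (85.9%), and it was called the opposite way in 13.

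**Figure D1:**
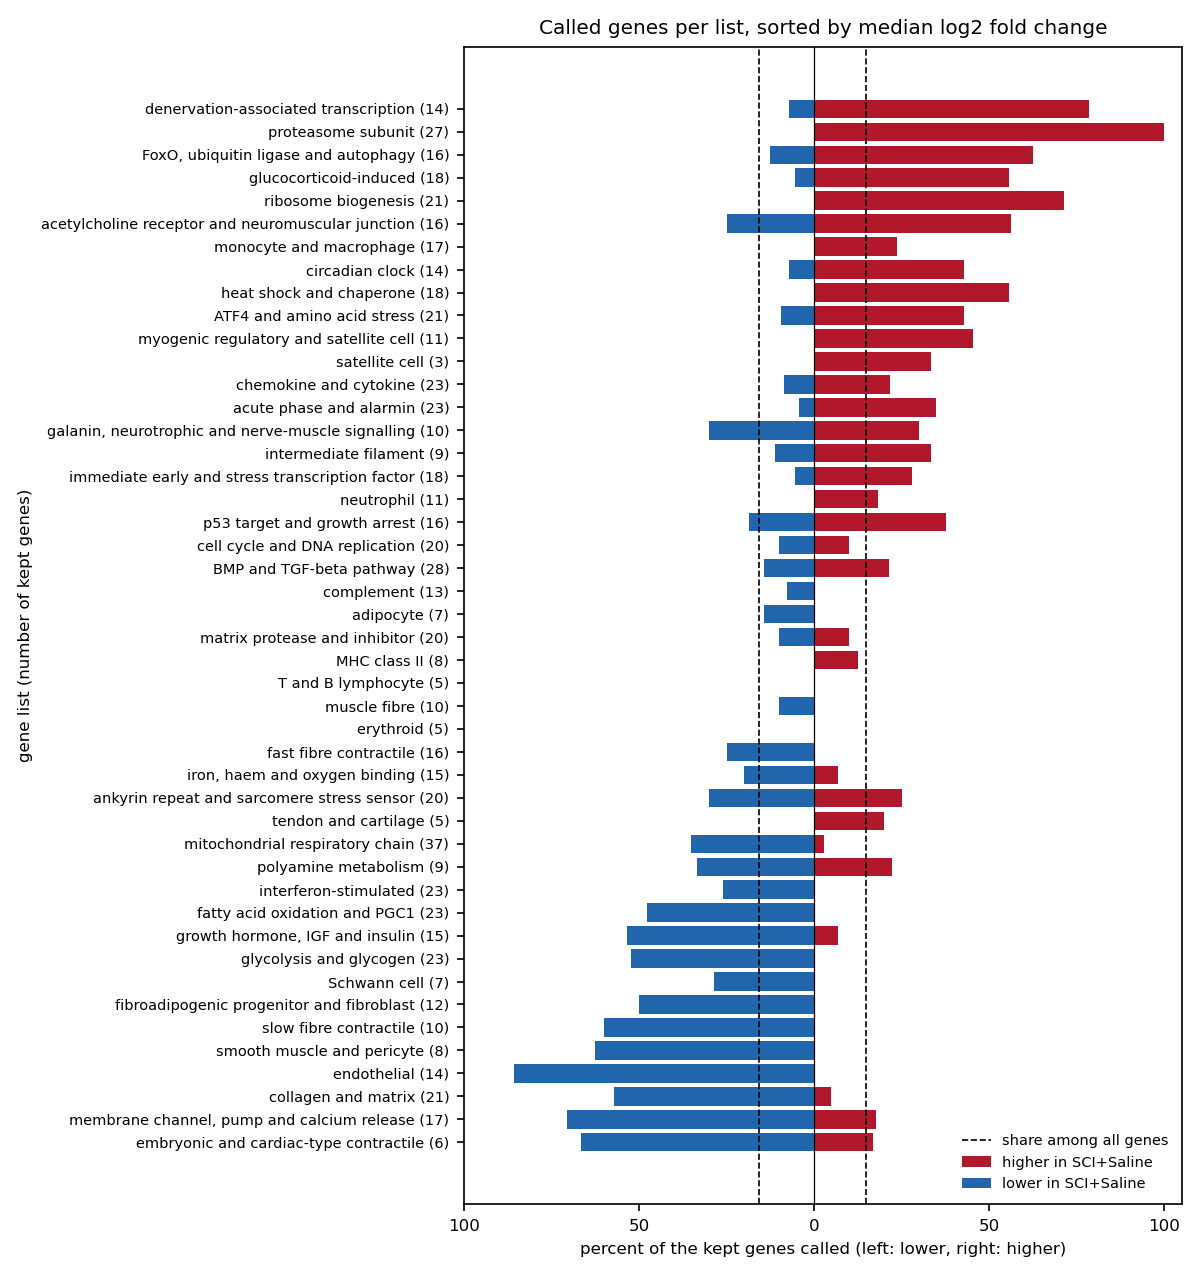
Percent of the kept genes of each gene list that were called higher (right, red) or lower (left, blue) in SCI+Saline against Sham+Saline, with the number of kept genes in brackets and the lists sorted by their median log2 fold change. Dashed lines mark the shares among all genes, 14.7% higher and 15.8% lower; proteasome subunits lie at the far right, endothelial markers at the far left.

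The widest differences in the muscle were those of a mechanical stress gene, a pair of keratins, acetylcholine receptor subunits, myogenin and the metallothioneins on the high side. On the low side were a muscle methyltransferase, an energy metabolism regulator, membrane channels and a regulator of the acetylcholine receptor. Ankrd1, which encodes a titin-bound ankyrin repeat protein induced by stretch and injury, was at 12.67, 12.15, 12.56 and 11.54 in SCI+Saline replicates 1 to 4 and at 6.65, 5.38, 6.44 and 6.95 in Sham+Saline. The 2 groups were more than 4 log2 apart at their nearest values, and the change was the largest of all genes (log2 fold change 5.87, SE 0.27, adjusted p = 2.54e-11, where SE is the standard error). Rrad, a small GTPase that restrains calcium channels, was at 10.58, 10.12, 10.95 and 9.53 in SCI+Saline and at 5.91, 4.82, 5 and 6.01 in Sham+Saline (log2 fold change 4.86, SE 0.3, adjusted p = 1.57e-09). Both belong to a list of 20 kept genes that sense sarcomere stress, of which 5 were higher and 6 lower, with a median of -0.18; median scaling gave 9 higher, 3 lower and a median of 0.22. The other higher members were Cryab at 1.16, Hspb1 at 1.09 and Ankrd2 at 1.09, each a small heat shock protein or ankyrin repeat partner of the sarcomere. Fhl1, a LIM protein of the sarcomere, was lower at -1.39, and Csrp3, a LIM protein of the Z-disc, did not pass the test at -0.65 (adjusted p = 0.165).

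The keratins Krt18 and Krt8, which pair with each other to form the filaments of simple epithelia, were both higher. Krt18 was at 9.58, 9.4, 9.86 and 8.97 in SCI+Saline and at 4.4, 4.31, 4.27 and 4.24 in Sham+Saline. It was not detected on any Sham+Saline array, so its level there is only a bound, and the SCI+Saline mean exceeded it at least 25.4-fold (log2 fold change 5.15, SE 0.22, adjusted p = 1.07e-11). Krt8 was at 8.54, 7.88, 8.79 and 8.16 in SCI+Saline and at 5.34, 4.3, 5.6 and 4.51 in Sham+Saline and was detected on 2 of the 4 Sham+Saline arrays (log2 fold change 3.4, SE 0.26, adjusted p = 2.28e-08). Desmin, the main intermediate filament of muscle fibres, did not pass the test at 0.23 (adjusted p = 0.237), and synemin, its partner, was lower at -1, a call that median scaling lost (-0.57, adjusted p = 0.0547). Of 9 kept intermediate filament genes 3 were higher and 1 was lower, at a median of 0.23, and median scaling gave 5 and 0.

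**Figure D2:**
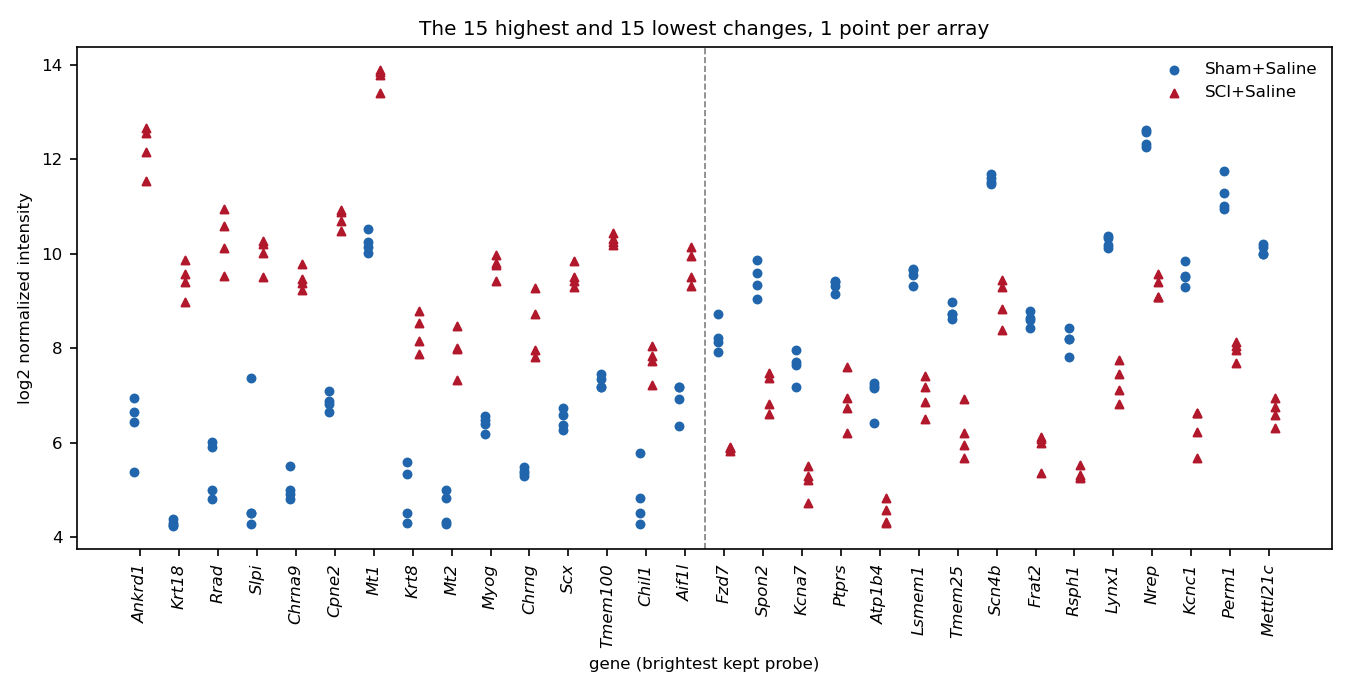
Log2 normalized intensity of the 15 genes with the highest and the 15 with the lowest log2 fold change among called genes whose groups did not overlap, with 1 triangle per SCI+Saline array and 1 circle per Sham+Saline array. Ankrd1 runs from 11.54 to 12.67 in SCI+Saline and from 5.38 to 6.95 in Sham+Saline, and the single raised Sham+Saline circle of Slpi, at 7.37, is replicate 4.

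Genes of the neuromuscular junction changed in both directions. Of 16 kept members of the list, 9 were higher and 4 lower against the background of 14.7% and 15.8%, with a median of 0.53; median scaling gave 8 and 3. The receptor subunits that a fibre makes outside the junction were higher. Chrng, the fetal gamma subunit, was at 7.81, 7.96, 8.73 and 9.28 in SCI+Saline and at 5.31, 5.36, 5.4 and 5.5 in Sham+Saline. Every SCI+Saline value lay more than 2 log2 above every Sham+Saline value (log2 fold change 3.05, SE 0.27, adjusted p = 1.44e-07). Chrna1, the alpha subunit that binds acetylcholine, was at 10.68, 11, 10.86 and 11.19 in SCI+Saline and at 8.61, 8.52, 8.56 and 8.65 in Sham+Saline (log2 fold change 2.35, SE 0.15, adjusted p = 2.27e-09). Chrna9, best known as a receptor subunit of cochlear hair cells, was at 9.46, 9.78, 9.23 and 9.39 in SCI+Saline and at 5.01, 4.82, 4.92 and 5.51 in Sham+Saline (log2 fold change 4.4, SE 0.25, adjusted p = 4.21e-10). Musk, the kinase that receives the nerve signal agrin, was at 7.51, 7.53, 7.26 and 7.25 in SCI+Saline and at 4.63, 4.53, 5.02 and 4.67 in Sham+Saline, and only 1 Sham+Saline array detected it (log2 fold change 2.68, SE 0.14, adjusted p = 2.54e-10). The subunits Chrnd and Chrnb1 were higher by less, at 0.79 and 0.7, as were the receptor scaffold Rapsn at 0.84 and the adhesion molecule Ncam1 at 1.16.

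The adult epsilon subunit Chrne, which replaces gamma at the mature junction, went the other way. It was at 5.69, 6.06, 5.79 and 6.05 in SCI+Saline and at 7.34, 7.42, 5.94 and 6.68 in Sham+Saline, and only Sham+Saline replicate 3 lay within the SCI+Saline range (log2 fold change -0.95, SE 0.24, adjusted p = 0.00611). Acetylcholinesterase (Ache) was lower at -0.84, agrin (Agrn) at -1.17. Lynx1, a membrane-anchored protein that damps nicotinic receptors, was by its brightest probe the gene with the largest fall of this group: it was at 7.12, 6.83, 7.76 and 7.46 in SCI+Saline and at 10.38, 10.12, 10.33 and 10.18 in Sham+Saline (log2 fold change -2.96, SE 0.18, adjusted p = 1.98e-09). The other kept probe of Lynx1 fell by less, at -1.05. The agrin receptor Lrp4 (-0.54) and the Musk adaptor Dok7 (-0.03) did not pass the test.

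The promoters of Chrng and Chrna1 are shown because both genes were raised together with the transcription factors myogenin and MyoD, which are known to bind E-boxes of the form CAGCTG. Each sequence is the 250 bases before the start of the gene, in the gene's own direction, from RefSeq for GRCm38.p6. Capitals mark every CAGCTG, which reads the same on both strands. Chrng lies at chr1:87205561-87205810 on the plus strand and Chrna1 at chr2:73580339-73580588 on the minus strand.
Chrng: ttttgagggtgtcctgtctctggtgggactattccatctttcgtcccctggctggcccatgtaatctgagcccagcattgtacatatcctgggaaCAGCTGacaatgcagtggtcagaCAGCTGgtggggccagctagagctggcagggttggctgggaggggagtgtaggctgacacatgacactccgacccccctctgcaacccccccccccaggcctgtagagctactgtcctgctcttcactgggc
Chrna1: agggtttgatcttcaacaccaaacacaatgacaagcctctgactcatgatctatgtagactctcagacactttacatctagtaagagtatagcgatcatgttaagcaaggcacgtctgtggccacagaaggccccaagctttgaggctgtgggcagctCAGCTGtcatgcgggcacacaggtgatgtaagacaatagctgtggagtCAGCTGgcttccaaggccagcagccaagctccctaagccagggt
Both windows hold 2 such motifs. Among 32851 promoter windows of the same length 13% hold at least 1 and 1.26% hold at least 2. The windows of 250 bases before the start of Chrna9, Musk and Chrne hold 1 each and that of Chrnb1 holds 0, so raised and lowered subunits are both among those with 1. A match describes the letters only.

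Signals between nerve and muscle were also split, with 3 of 10 kept members higher and 3 lower, at a median of 0.29; median scaling gave 4 and 3. Gdnf, a survival factor for motor neurons, was at 6.46, 5.71, 6.74 and 6.21 in SCI+Saline and at 4.21, 5.04, 4.72 and 4.39 in Sham+Saline (log2 fold change 1.7, SE 0.21, adjusted p = 7.74e-06), and it was detected on 1 Sham+Saline array. Gdf5, a BMP ligand that muscle makes after denervation, was higher at 1.22. Fgfbp1, a secreted carrier of fibroblast growth factors at the junction, was not detected on any SCI+Saline array and was at least 3.08-fold lower there (log2 fold change -1.92, SE 0.16, adjusted p = 7.99e-08). Nrep, an intracellular protein first described in regenerating neurons, was at 9.09, 9.08, 9.41 and 9.57 in SCI+Saline and at 12.32, 12.26, 12.61 and 12.58 in Sham+Saline (log2 fold change -3.16, SE 0.14, adjusted p = 1.63e-11). Even its lowest Sham+Saline value lay far above its highest SCI+Saline value. Galanin (Gal), a neuropeptide of injured nerve, did not pass the test at 1.09 (adjusted p = 0.128).

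Genes known to follow loss of innervation rose as a group: 11 of 14 kept members were higher and 1 was lower, with a median of 1.94, and median scaling gave 11 and 0. Myog (myogenin), a myogenic factor that activates receptor and ubiquitin ligase genes, was at 9.81, 9.43, 9.77 and 9.98 in SCI+Saline and at 6.57, 6.48, 6.4 and 6.18 in Sham+Saline (log2 fold change 3.34, SE 0.19, adjusted p = 4.11e-10). Gadd45a, a growth arrest protein tied to fibre atrophy, was at 12.15, 12.16, 12.68 and 11.86 in SCI+Saline and at 9.74, 9.57, 9.39 and 9.57 in Sham+Saline (log2 fold change 2.65, SE 0.2, adjusted p = 1.74e-08). Runx1, a transcription factor that preserves denervated fibres, was not detected on any Sham+Saline array and its level exceeded theirs at least 4.02-fold (log2 fold change 2.47, SE 0.2, adjusted p = 5.55e-08). Its SCI+Saline values were 7.51, 6.62, 6.73 and 6.29. Cdkn1a, which arrests the cell cycle, was at 2.13, Tnfrsf12a, the receptor for the cytokine TWEAK, at 2.14, and Hdac4, a histone deacetylase that represses synaptic and metabolic genes, at 1.61. Sln (sarcolipin), an inhibitor of the calcium pump, was at 10.84, 11.8, 10.99 and 11.82 in SCI+Saline and at 8.27, 8.67, 9.72 and 9.47 in Sham+Saline (log2 fold change 2.33, SE 0.34, adjusted p = 4.83e-05). Myh8, the perinatal myosin, was the lower member at -1.2 and was not called under median scaling (-0.82, adjusted p = 0.0916).

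Among the myogenic factors the rise covered those that act in committed cells. Myod1 was at 8.38, 8.41, 8.58 and 8.12 in SCI+Saline and at 6.42, 6.01, 5.78 and 4.82 in Sham+Saline (log2 fold change 2.62, SE 0.23, adjusted p = 1.67e-07), and Myf6 (MRF4), the factor most abundant in adult fibres, was at 12.17, 12.62, 11.69 and 11.65 in SCI+Saline and at 9.75, 9.9, 9.9 and 9.65 in Sham+Saline (log2 fold change 2.23, SE 0.2, adjusted p = 1.73e-07). Of 11 kept members of the myogenic list 5 were higher and 0 lower, with a median of 0.42; median scaling gave 7 and 0. The remaining higher members were Six4 at 0.63 and Hes6 at 0.42. The call of Hes6 was lost without SCI+Saline replicate 2, 3 or 4 or Sham+Saline replicate 2, 3 or 4, and altogether in 10 of 27 alternatives. Among markers of satellite cells, the muscle stem cells, Pax7, Myf5, Calcr and Chrdl2 were not detected on the saline arrays. Only 3 satellite cell markers were kept, and of these Sdc4 was higher at 0.6 and Vcam1 was at 0.09; median scaling gave 2 higher. Their summed intensity was 481 to 522 in SCI+Saline and 286 to 423 in Sham+Saline (exact permutation test, p = 0.0286, adjusted 0.114).

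**Figure D3:**
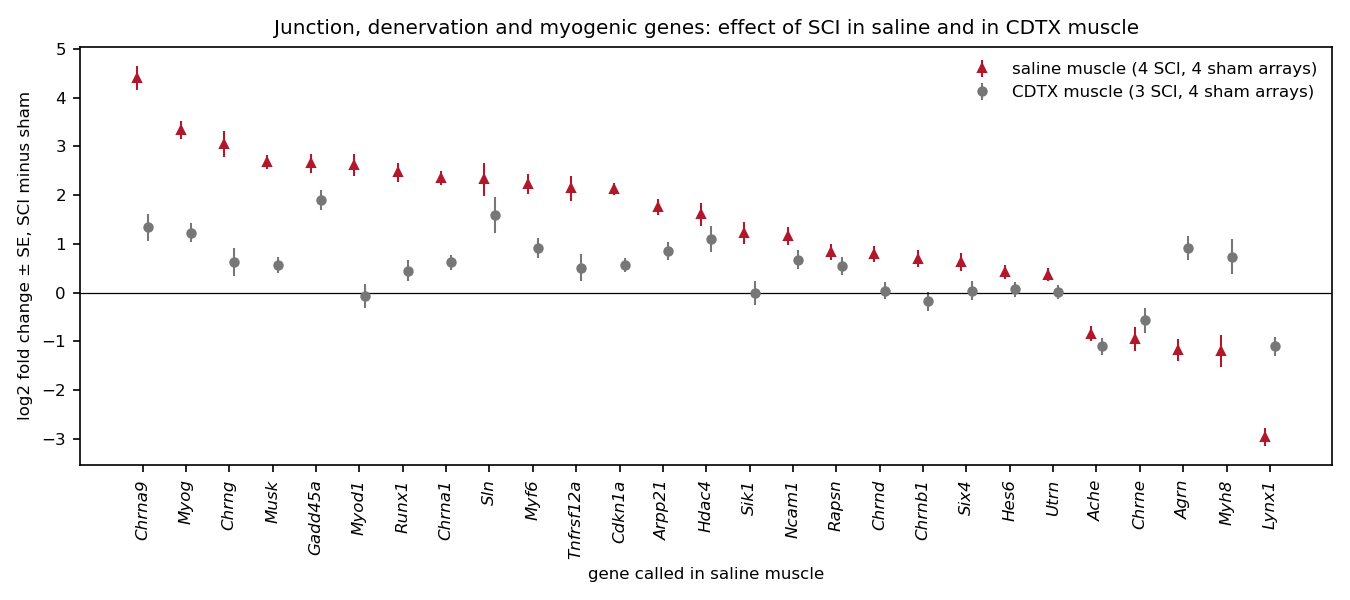
Log2 fold change (SCI minus sham) with its standard error for the junction, denervation and myogenic genes shown, all called in saline muscle, as triangles for saline muscle (4 SCI and 4 sham arrays) and as circles for CDTX muscle (3 SCI and 4 sham arrays). Chrna9 stands at 4.4 in saline and 1.34 in CDTX muscle, Myod1 at 2.62 and -0.07, and Hdac4 at 1.61 and 1.1.

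The protein degradation machinery rose across its length. All 27 kept proteasome subunits were higher, against a background of 14.7%, with a median of 1.22. In 25 of them every SCI+Saline value lay above every Sham+Saline value, which held for 11.5% of all genes. Under median scaling 27 were also higher, at a median of 1.78. Counts lay between 24 and 27 with each array left out in turn. Subunits of the core barrel, inside which proteins are cleaved, included Psmb3, which was at 12.97, 13.13, 12.77 and 12.68 in SCI+Saline and at 11.15, 11.39, 10.82 and 11.05 in Sham+Saline (log2 fold change 1.78, SE 0.15, adjusted p = 8.57e-08), and Psma7 at 1.65. The regulatory lid and base, which bind and unfold tagged proteins, were led by Psmd6, which was at 9.48, 9.1, 8.92 and 8.3 in SCI+Saline and at 6.94, 7.03, 7.08 and 6.97 in Sham+Saline (log2 fold change 1.95, SE 0.25, adjusted p = 1.46e-05), by the ATPase Psmc6 at 1.7 and by Psmd11 at 1.22. The smallest rise of a subunit was that of Psmd7 at 0.36. The subunits that interferon puts in place of the constitutive ones did not follow: Psmb8 was at 0.05 and Psmb9 at -0.08, neither called, and Psmb10 was lower at -0.51, which median scaling moved to -0.06 (adjusted p = 0.859). The call of Psmb10 was also lost without SCI+Saline replicate 3 or Sham+Saline replicate 4, and altogether in 6 of 27 alternatives.

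Ubiquitin ligases and autophagy genes under the FoxO factors showed 10 of 16 kept members higher and 2 lower, with a median of 0.86; median scaling gave 11 and 0. Fbxo32 (atrogin-1), a muscle ubiquitin ligase, was at 10.39, 10.78, 10.91 and 10.21 in SCI+Saline and at 8.58, 8.36, 8.86 and 7.86 in Sham+Saline (log2 fold change 2.16, SE 0.24, adjusted p = 2.5e-06). Trim63 (MuRF1), the ligase for myosin and other thick filament proteins, was at 10.05, 9.95, 9.8 and 9.18 in SCI+Saline and at 8.61, 8.63, 8.56 and 8.18 in Sham+Saline (log2 fold change 1.25, SE 0.22, adjusted p = 0.000312). The lowest SCI+Saline value of Trim63 was replicate 4, and it still lay above all Sham+Saline values. Foxo1 was at 0.97, Fbxo31 at 1.32, Eif4ebp1, a brake on cap-dependent translation, at 1.94, and Map1lc3a, a protein of the autophagosome membrane, at 1.22. Traf6, at -0.53, and Ulk1, at -0.65, were the lower members.

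**Figure D4:**
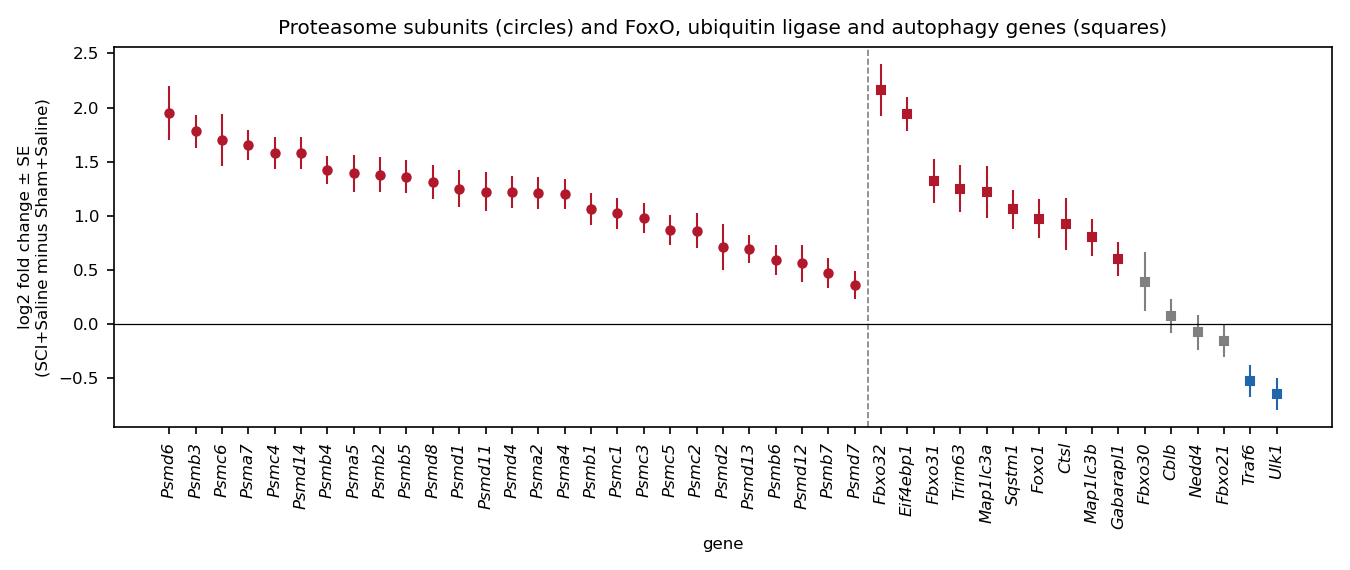
Log2 fold change (SCI+Saline minus Sham+Saline) with its standard error for the 27 kept proteasome subunits (circles) and the 16 kept FoxO, ubiquitin ligase and autophagy genes (squares); red is higher, blue is lower, grey was not called. The circles run from 0.36 for Psmd7 to 1.95 for Psmd6, and the squares from -0.65 for Ulk1 to 2.16 for Fbxo32.

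Genes for making ribosomes rose beside those for degrading protein. Of 21 kept ribosome biogenesis genes 15 were higher and 0 lower, with a median of 0.63, and median scaling gave 17 and 0. The nucleolar proteins Nop14, Nhp2 and Nop58 were at 1.23, 1.2 and 1.18, and nucleolin (Ncl) was at 0.7. Myc, a driver of ribosome production, did not pass the test at 0.3 (adjusted p = 0.155). Among polyamine genes Odc1, which makes putrescine, was at 11.71, 11.23, 11.6 and 11.26 in SCI+Saline and at 9.63, 9.3, 9.86 and 10.05 in Sham+Saline (log2 fold change 1.74, SE 0.16, adjusted p = 3.1e-07), and Srm, which makes spermidine, was at 1.32. Smox, which oxidises spermine back to spermidine, was at 8.66, 8.42, 8.49 and 8.24 in SCI+Saline and at 10.31, 10.17, 9.91 and 9.86 in Sham+Saline (log2 fold change -1.61, SE 0.17, adjusted p = 1.24e-06). Of 9 kept polyamine genes 2 were higher and 3 lower, at a median of -0.25; median scaling gave 3 and 1, at a median of 0.16.

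Heat shock and chaperone genes were higher in 10 of 18 kept members and lower in 0, with a median of 0.44; median scaling gave 12 and 0. Hspb7, a small heat shock protein of the sarcomere, was at 12.14, 11.98, 12.1 and 11.85 in SCI+Saline and at 10.36, 9.45, 9.34 and 9.67 in Sham+Saline (log2 fold change 2.31, SE 0.21, adjusted p = 1.78e-07). The endoplasmic reticulum chaperone Hspa5 was at 1.59, the cytosolic Hsp90aa1 at 1.48 and the mitochondrial Hspe1 at 1.3. The constitutive Hspa8 did not pass the test (-0.38), nor did it under median scaling (0.1). Of 21 kept genes that the factor ATF4 activates when amino acids run short, 9 were higher and 2 lower, with a median of 0.43; median scaling gave 15 and 0. The amino acid transporter subunit Slc3a2 was at 1.17, the serine synthesis enzyme Psat1 at 1.03, Atf4 at 0.64, and Fgf21, a hormone of stressed muscle, at 0.67. Ddit3 (CHOP), a lower member of this list, was at -0.54 (adjusted p = 0.00931).

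The p53 target list held 6 higher and 3 lower of 16 kept genes, with a median of 0.16, and median scaling gave 9 and 3. Besides Gadd45a and Cdkn1a, the ectodysplasin receptor Eda2r was at 1.78. Lower members were Sesn1 at -1.58 and Gadd45b at -1.35, which is a relative of Gadd45a that moved the opposite way.

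Metallothioneins, small proteins that bind zinc and copper and that metals and glucocorticoids induce, were among the highest changes. Mt1 was at 13.89, 13.77, 13.39 and 13.85 in SCI+Saline and at 10.02, 10.24, 10.14 and 10.52 in Sham+Saline (log2 fold change 3.49, SE 0.15, adjusted p = 1.07e-11). Mt2 was at 8.48, 8.01, 7.34 and 7.99 in SCI+Saline and at 4.28, 5, 4.32 and 4.83 in Sham+Saline, and 2 of the 4 Sham+Saline arrays detected it (log2 fold change 3.35, SE 0.24, adjusted p = 1.34e-08). The groups did not overlap for either gene. Of 18 kept glucocorticoid-induced genes 10 were higher and 1 lower, with a median of 0.73; median scaling gave 13 and 1. Per1 was at 1.87, Errfi1, a feedback inhibitor of the EGF receptor, at 1.58, and Tsc22d3 (GILZ), an anti-inflammatory glucocorticoid target, at 0.98. Fkbp5, a chaperone of the glucocorticoid receptor that it induces, was at 6.57, 6.85, 6.85 and 6.69 in SCI+Saline and at 5.63, 6.49, 6.72 and 6.67 in Sham+Saline. Sham+Saline replicates 3 and 4 lay within the SCI+Saline range, and the gene did not pass the test (log2 fold change 0.36, SE 0.2, adjusted p = 0.189). The phosphatase Dusp1 was the lower member at -1.72.

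The promoters of Mt2 and Mt1 are printed because these neighbours on chromosome 8 were raised together and are known targets of the metal-sensing factor MTF1. Capitals mark TGCNCNC on either strand, where N is any base. This pattern is looser than the core of the MTF1 response element, in which the first N is A or G. Both sequences are the 250 bases before the gene's start, from RefSeq for GRCm38.p6, plus strand, at chr8:94172368-94172617 for Mt2 and chr8:94178839-94179088 for Mt1.
Mt2: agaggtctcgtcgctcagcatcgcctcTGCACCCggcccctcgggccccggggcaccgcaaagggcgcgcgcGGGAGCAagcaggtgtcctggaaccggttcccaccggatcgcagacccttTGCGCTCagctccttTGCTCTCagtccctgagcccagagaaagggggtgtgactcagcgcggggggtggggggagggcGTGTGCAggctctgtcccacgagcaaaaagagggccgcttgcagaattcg
Mt1: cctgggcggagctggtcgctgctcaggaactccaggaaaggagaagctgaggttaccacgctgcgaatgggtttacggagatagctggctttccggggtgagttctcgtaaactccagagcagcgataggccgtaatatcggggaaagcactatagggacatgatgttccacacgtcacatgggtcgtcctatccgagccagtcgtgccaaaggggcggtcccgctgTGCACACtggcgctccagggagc
The window of Mt2 holds 5 matches to the looser pattern and that of Mt1 holds 1. Of the Mt2 matches, TGCTCTC and GGGAGCA, the latter read on the other strand, have T in place of that A or G. Of 32851 promoter windows of this length 44.4% hold at least 1 match and 0.344% hold at least 5. The counts hold for these windows only, whose place rests on the annotated start of each gene, and bases after that start were not searched. They do not compare the whole promoters of Mt1 and Mt2. Nothing about binding in these muscles was measured.

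Circadian clock genes were higher in 6 of 14 kept members and lower in 1, with a median of 0.45, and median scaling gave 10 and 0. Ciart, a repressor of the clock, was at 6.97, 7.21, 7.25 and 6.7 in SCI+Saline and at 4.91, 5.08, 4.96 and 4.6 in Sham+Saline (log2 fold change 2.14, SE 0.18, adjusted p = 6.76e-08). The period gene Per2 was at 7.56, 7.33, 7.77 and 7.97 in SCI+Saline and at 5.96, 4.98, 5.85 and 5.98 in Sham+Saline (log2 fold change 1.97, SE 0.22, adjusted p = 2.57e-06). Dbp, an output factor of the clock, was at 1.58. Arntl (BMAL1), the activator that the period proteins oppose, was at -0.51, a call lost under median scaling (-0.09, adjusted p = 0.759) and without SCI+Saline replicate 4 (-0.31, adjusted p = 0.103) or Sham+Saline replicate 1 or 3. Altogether 7 of 27 alternatives lost it. The time of day of each tissue collection is not in the labels.

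Among 18 kept immediate early and stress transcription factors 5 were higher and 1 lower, with a median of 0.19; median scaling gave 7 and 1. Junb was at 8.33, 7.93, 7.9 and 7.9 in SCI+Saline and at 6.39, 6.56, 5.23 and 6 in Sham+Saline (log2 fold change 1.97, SE 0.22, adjusted p = 2.16e-06), Mafk was at 1.55 and Jun at 1.19. Egr1, which growth factors and contraction induce within minutes, was at 8.22, 8.32, 8.57 and 9.06 in SCI+Saline and at 9.12, 10, 10.01 and 9.88 in Sham+Saline (log2 fold change -1.21, SE 0.22, adjusted p = 0.000393). Fos did not pass the test at -0.96 (adjusted p = 0.0637). In the BMP and TGF-beta list 6 of 28 kept members were higher and 4 lower, with a median of 0.1; median scaling gave 13 and 3. Id2, an inhibitor of myogenic factors, was at 8.06, 8.11, 8 and 7.31 in SCI+Saline and at 5.07, 4.99, 5.93 and 5.73 in Sham+Saline (log2 fold change 2.44, SE 0.24, adjusted p = 5.12e-07), and Id1, a target of BMP signalling, was at 0.81. The receptor Tgfbr1 was at 1.53, and Acvr2b, the receptor of myostatin and activins, was lower at -1.53. Bmp4 (0.22) and Tgfb1 (0.31) did not pass the test.

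Contractile genes were lower in part of each class, and no slow or fast fibre gene was called higher. Of 10 kept slow fibre genes 6 were lower and 0 higher, with a median of -0.68; median scaling left 3 lower at a median of -0.23. Myh7, the slow myosin heavy chain, was at 4.8, 5.6, 5.31 and 5.52 in SCI+Saline and at 6.48, 6.14, 7.56 and 6.71 in Sham+Saline (log2 fold change -1.42, SE 0.24, adjusted p = 0.000188). Casq2, the calcium store protein of slow fibres, was at -1.85 and Myl2, the slow regulatory light chain, at -1.4. Slow troponin T (Tnnt1) did not pass the test at -0.31, and median scaling turned its sign (0.18).

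Of 16 kept fast fibre genes 4 were lower and 0 higher, with a median of -0.16, and median scaling left 2. Casq1, the calcium store protein of fast fibres, was at 8.89, 9.61, 9.51 and 9.7 in SCI+Saline and at 12, 11.61, 11.64 and 11.23 in Sham+Saline (log2 fold change -2.19, SE 0.25, adjusted p = 2.47e-06). Myh2, the myosin of fast oxidative fibres, was at 11.29, 11.08, 11.92 and 11.56 in SCI+Saline and at 13.15, 13.06, 13.6 and 13.38 in Sham+Saline (log2 fold change -1.83, SE 0.19, adjusted p = 1.41e-06). Myh4, the myosin of the fastest fibres, did not pass the test at 0.26 (adjusted p = 0.162). Myh1 was lower at -0.55, and median scaling lost that call (-0.05, adjusted p = 0.901), as did leaving out SCI+Saline replicate 2 or 4 or Sham+Saline replicate 1 or 3. Altogether 10 of 27 alternatives lost it. Embryonic and cardiac-type genes had 6 kept members, 4 lower and 1 higher, at a median of -1.02, and median scaling gave 3 and 1. Cardiac actin (Actc1) was at -1.11 and Myh6 at -1.31, while Myl4, the atrial and embryonic light chain, was at 0.75 and was not called without Sham+Saline replicate 1 or 3. Altogether 4 of 27 alternatives lost the call of Myl4.

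Genes of the excitable membrane were mostly lower. Of 17 kept channel, pump and calcium release genes 12 were lower and 3 higher, against 15.8% and 14.7%, with a median of -0.96. Median scaling left 7 lower and 3 higher, at a median of -0.55. Kcnc1 (Kv3.1), a voltage-gated potassium channel, was at 6.64, 5.68, 6.64 and 6.24 in SCI+Saline and at 9.84, 9.52, 9.5 and 9.29 in Sham+Saline (log2 fold change -3.24, SE 0.2, adjusted p = 2.16e-09). Aqp4, the water channel of fast fibres, was at 5.98, 6.22, 5.71 and 5.28 in SCI+Saline and at 7.6, 7.63, 8.68 and 7.67 in Sham+Saline (log2 fold change -2.1, SE 0.28, adjusted p = 1.46e-05). The sodium pump subunit Atp1b1 was at -2.05 and the resting potassium channel Kcnj2 at -1.33. The chloride channel Clcn1, which damps repetitive firing, was at -0.97 and was not called under median scaling (-0.59, adjusted p = 0.0507).

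Further membrane genes were among the 15 lowest of the whole array. Scn4b, a beta subunit of sodium channels, was at 8.84, 8.39, 9.3 and 9.45 in SCI+Saline and at 11.69, 11.6, 11.52 and 11.47 in Sham+Saline (log2 fold change -2.57, SE 0.21, adjusted p = 5.87e-08). Kcna7 (Kv1.7) was at -2.44 and Atp1b4, a muscle relative of the sodium pump beta subunits that resides in the nuclear membrane, was at -2.5. Ptprs, a receptor tyrosine phosphatase that binds matrix proteoglycans, was at 6.96, 6.2, 6.74 and 7.61 in SCI+Saline and at 9.42, 9.4, 9.14 and 9.32 in Sham+Saline (log2 fold change -2.45, SE 0.21, adjusted p = 1.2e-07). The Wnt receptor Fzd7 and the Wnt pathway protein Frat2 were at -2.37 and -2.72, and the secreted matrix protein Spon2 was at -2.39.

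The lowest change of any gene was that of Mettl21c, a lysine methyltransferase made almost only in muscle. It was at 6.59, 6.96, 6.32 and 6.77 in SCI+Saline and at 10, 10.21, 10.14 and 10 in Sham+Saline (log2 fold change -3.43, SE 0.16, adjusted p = 3.23e-11). The next was Perm1, which PGC-1 and the ERR receptors induce and which supports mitochondrial genes. It was at 7.96, 8.04, 8.13 and 7.69 in SCI+Saline and at 10.95, 11, 11.75 and 11.28 in Sham+Saline (log2 fold change -3.29, SE 0.24, adjusted p = 1.68e-08).

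Perm1 stood within a list of 23 kept fatty acid oxidation and PGC-1 genes, of which 11 were lower and 0 higher, with a median of -0.5. Under median scaling 8 were lower and 5 higher, with a median of -0.03. The coactivators Ppargc1a and Ppargc1b were at -0.98 and -1.36, and the carnitine transferase Cpt1b, which brings fatty acids into mitochondria, was at -1.13. Lipoprotein lipase (Lpl) was at -1.18 and Decr1, an enzyme for unsaturated fatty acids, at -1.39. Ppargc1a was at 5.3, 5.37, 4.91 and 4.74 in SCI+Saline and at 5.9, 5.94, 6.66 and 5.77 in Sham+Saline, so all SCI+Saline values lay below all Sham+Saline values (log2 fold change -0.98, SE 0.22, adjusted p = 0.0021).

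Respiratory chain subunits were lower in 13 of 37 kept members and higher in 1, with a median of -0.25. The sign of the median depended on the scaling, since median scaling gave 1 lower, 3 higher and a median of 0.11. That median still lay below the 0.17 of all probes under median scaling. The most reduced subunit was Atp5pb at -0.83, and the higher one was Cox7b at 1.02. Glycolysis and glycogen genes were lower in 12 of 23 kept members and higher in 0, with a median of -0.57; median scaling left 7 lower at a median of -0.21. Phkg1, the catalytic subunit of phosphorylase kinase, was at -1.64, Tpi1 at -1.09, the AMPK subunit Prkag3 at -1.07 and glycogen synthase (Gys1) at -1.07. The insulin-responsive glucose transporter Slc2a4 (GLUT4) was at -1.03 and lost its call under median scaling (-0.62, adjusted p = 0.0669).

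Of 15 kept genes of the growth hormone, IGF and insulin axis 8 were lower and 1 higher, with a median of -0.56, and median scaling gave 6 and 2 at a median of -0.15. Igf2, a fetal growth factor also made by muscle, was at 10.19, 9.75, 11.02 and 11.36 in SCI+Saline and at 12.28, 12.06, 11.81 and 12.07 in Sham+Saline (log2 fold change -1.48, SE 0.26, adjusted p = 0.000341). Socs2, an inhibitor that growth hormone induces, was at 6.98, 6.72, 7.27 and 6.62 in SCI+Saline and at 8.95, 8.57, 9.16 and 7.55 in Sham+Saline (log2 fold change -1.66, SE 0.27, adjusted p = 0.000148). The growth hormone receptor (Ghr) was at -0.99 and Igfals, a carrier of circulating IGF, at -1.24. Igf1 did not pass the test at -0.05, and median scaling turned its sign (0.41). Cish, another target of this axis, spread over 2 log2 in either group and did not pass the test at -0.47 (adjusted p = 0.537).

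Iron handling held large changes of single genes. Tfrc, the transferrin receptor that takes up iron, was at 8.01, 8.36, 7.97 and 8.81 in SCI+Saline and at 10.65, 10.48, 10.57 and 10.72 in Sham+Saline (log2 fold change -2.32, SE 0.17, adjusted p = 1.74e-08). Slc40a1 (ferroportin), which exports iron, was at -1.68. Hmox1, which degrades haem, was at 5.69, 7.28, 6 and 6.48 in SCI+Saline and at 4.39, 5.26, 4.62 and 5.04 in Sham+Saline (log2 fold change 1.54, SE 0.32, adjusted p = 0.00128). Of 15 kept members 3 were lower and 1 higher, at a median of -0.17; median scaling gave 2 and 4, at a median of 0.03, and leaving out Sham+Saline replicate 4 gave 3 higher. Myoglobin (Mb) did not pass the test at -0.18.

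Vascular markers were lower. Of 14 kept endothelial markers 12 were lower and 0 higher, with a median of -0.76. Median scaling left 4 lower, at a median of -0.32, with 0 higher. Their summed intensity was 3104 to 3952 in SCI+Saline and 5591 to 6298 in Sham+Saline, a ratio of 0.593 (exact permutation test, p = 0.0286, and 0.114 after Benjamini-Hochberg adjustment over 12 marker lists). The apelin receptor Aplnr was at 6.23, 5.84, 6.34 and 6.42 in SCI+Saline and at 7.7, 7.42, 7.26 and 7.07 in Sham+Saline (log2 fold change -1.15, SE 0.2, adjusted p = 0.000281). Von Willebrand factor (Vwf), a clotting protein of endothelium, was at 7.42, 6.58, 7.58 and 7.79 in SCI+Saline and at 8.76, 8.55, 8.32 and 8.32 in Sham+Saline (log2 fold change -1.14, SE 0.2, adjusted p = 0.000339). The junction protein Cdh5, which defines endothelium, was at -0.94 and was not called under median scaling (-0.54, adjusted p = 0.078), while the receptor Kdr did not pass the test in either fit (-0.27). Smooth muscle and pericyte markers were lower in 5 of 8 kept members, with a median of -0.75, or 4 and -0.38 under median scaling, and their summed intensity was 1666 to 2334 against 3369 to 3961 (exact permutation test, p = 0.0286, adjusted 0.114). Mylk, the kinase that starts smooth muscle contraction, was at -1.22, Myh11 at -0.94 and Acta2 at -0.93.

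**Figure D5:**
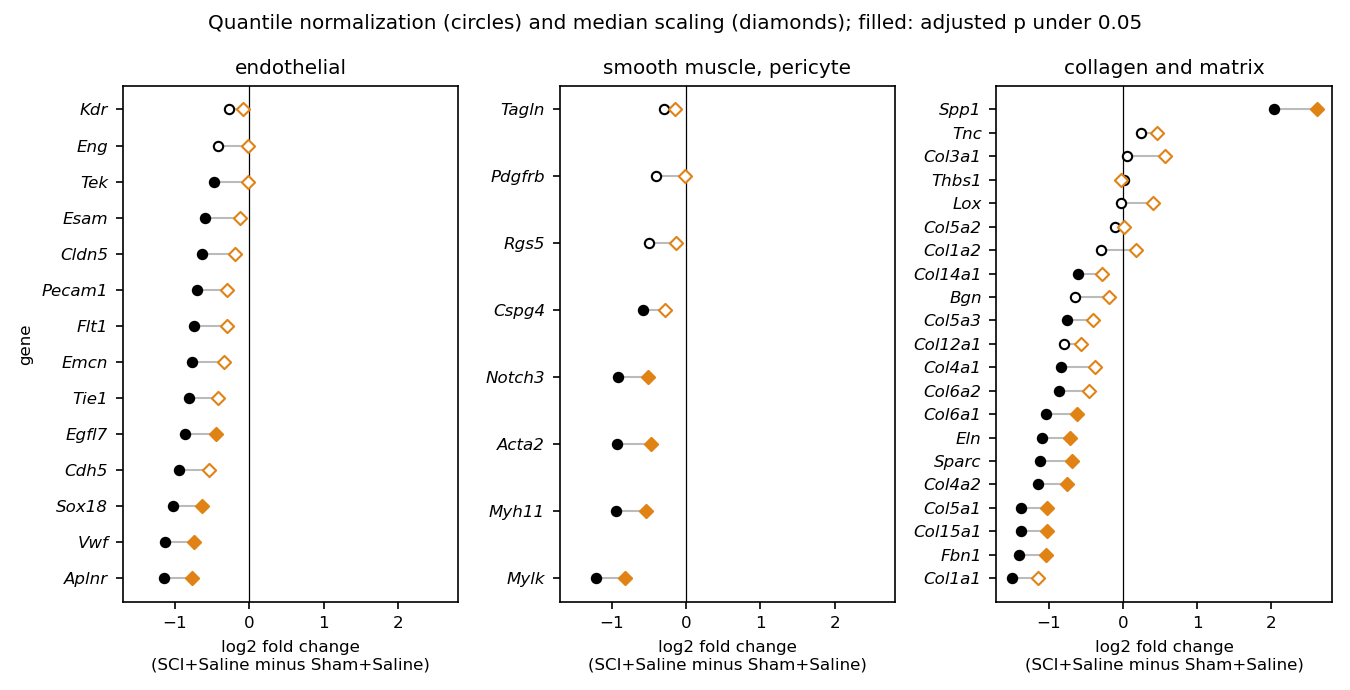
Log2 fold change (SCI+Saline minus Sham+Saline) of each kept endothelial, smooth muscle and matrix gene after quantile normalization (circles) and after median scaling (diamonds), filled where the adjusted p was under 0.05. Diamonds lie to the right of the circles by about 0.4 for most genes, and 4 endothelial genes stay filled.

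Matrix genes were lower in 12 of 21 kept members and higher in 1, with a median of -0.8. Median scaling left 7 lower and 1 higher, at a median of -0.4. Fbn1 (fibrillin-1), the scaffold of elastic fibres, was at -1.4, Col5a1 at -1.38 and Col15a1, a collagen of basement membrane zones, at -1.38. Col1a1, the main chain of fibrillar collagen, was at 7.99, 8.72, 7.55 and 9.64 in SCI+Saline and at 9.31, 9.35, 9.28 and 11.96 in Sham+Saline (log2 fold change -1.5, SE 0.49, adjusted p = 0.0258). Sham+Saline replicate 4 was the highest array by more than 2 log2, and without it the value was -0.84 and not called (adjusted p = 0.0737). The call was also lost without SCI+Saline replicate 1 (-1.33, adjusted p = 0.0736) or 3 (-1.19, adjusted p = 0.0864) and under median scaling (-1.14, adjusted p = 0.113). Altogether 9 of 27 alternatives lost the call of Col1a1. Col3a1 did not pass the test at 0.05. Spp1 (osteopontin), a matrix protein of macrophages and bone cells, was the higher member. It was at 8.65, 11.26, 7.6 and 11.31 in SCI+Saline and at 7.43, 6.23, 6.79 and 10.23 in Sham+Saline (log2 fold change 2.04, SE 0.75, adjusted p = 0.0464). Replicates 2 and 4 of SCI+Saline were more than 2 log2 above the others, and the call was lost without either (1.51, adjusted p = 0.167, and 1.5, adjusted p = 0.139). It was also lost without Sham+Saline replicate 1, 2 or 3 (1.55 to 1.95, adjusted p up to 0.151). Altogether 20 of 27 alternatives lost the call of Spp1. Markers of fibroadipogenic progenitors, the connective tissue cells of muscle, were lower in 6 of 12 kept members and higher in 0, at a median of -0.67, and median scaling gave 2 and 1, at a median of -0.27.

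Among 20 kept matrix proteases and inhibitors 2 were higher and 2 lower, at a median of -0.06; median scaling gave 3 and 1, at a median of 0.05. The lower members were Mmp15 and Adamts2, of which the latter is known to process procollagen. The stromelysin Mmp3 was at 1.01 and the membrane protease Mmp15 at -1.07. Timp1, an inhibitor of matrix metalloproteinases, was at 7.85, 8.6, 7.04 and 9.4 in SCI+Saline and at 6.72, 5.59, 6.27 and 8.43 in Sham+Saline (log2 fold change 1.47, SE 0.48, adjusted p = 0.0276). The groups overlapped through Sham+Saline replicate 4, and without that array the value was 2.03 (adjusted p = 0.000978). The gene was not called without SCI+Saline replicate 2 (1.34, adjusted p = 0.076) or 4 (1.08, adjusted p = 0.0903), nor without Sham+Saline replicate 1, 2 or 3 (adjusted p up to 0.105). Altogether 10 of 27 alternatives lost its call.

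Acute phase and alarmin genes were higher in 8 of 23 kept members and lower in 1, with a median of 0.31, and median scaling gave 11 and 1. Slpi, a secreted inhibitor of leukocyte proteases, was at 10.2, 10.01, 9.51 and 10.26 in SCI+Saline and at 4.51, 4.52, 4.28 and 7.37 in Sham+Saline (log2 fold change 4.82, SE 0.48, adjusted p = 5.74e-07). S100a8, a calcium-binding alarmin of neutrophils, was at 11.83, 10.97, 10.89 and 13.07 in SCI+Saline and at 5.76, 4.43, 4.91 and 12.72 in Sham+Saline. Sham+Saline replicate 4 lay within the SCI+Saline range and the other Sham+Saline values were all below 6 (log2 fold change 4.74, SE 1.2, adjusted p = 0.00475). Without that array the log2 fold change was 6.66 for S100a8, 5.57 for Slpi and 3.46 for Lcn2, a siderophore-binding alarmin that was at 7.48, 8.19, 7.3 and 8.7 in SCI+Saline and at 4.33, 4.54, 4.59 and 7.66 in Sham+Saline (log2 fold change 2.64, SE 0.55, adjusted p = 0.00122). S100a9, the partner of S100a8, was at 6.52, 6.75, 5.5 and 11.59 in SCI+Saline and at 4.46, 4.3, 4.21 and 11.3 in Sham+Saline, and it did not pass the test (adjusted p = 0.415), whereas without Sham+Saline replicate 4 it was called at 3.29 (adjusted p = 0.0102). Serpina3n, a protease inhibitor of the acute phase, separated the groups on all arrays: it was at 8.56, 9.11, 9.11 and 10.16 in SCI+Saline and at 6.39, 6.77, 6.98 and 7 in Sham+Saline (log2 fold change 2.45, SE 0.27, adjusted p = 1.96e-06). Socs3, a target of STAT3, did not pass the test at -0.1, and median scaling turned its sign (0.32).

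Markers of immune cells were read beside these genes, and their part in the results above was not tested. Of 11 kept neutrophil markers S100a8 and Lcn2 were higher and 0 lower, and the summed intensity ran from 2290 to 14407 in SCI+Saline and from 286 to 12891 in Sham+Saline. The overlap came from Sham+Saline replicate 4, since the other Sham+Saline arrays were at 286 to 346. Without it 3 markers were higher and the median log2 fold change of the list went from 0.16 to 1.43, while without SCI+Saline replicate 4 that median was -0.35. The granule genes of immature neutrophils Camp (0.16), Mpo (0.09), Elane (0.04) and Ltf (-0.18) did not pass the test. Of 17 kept monocyte and macrophage markers 4 were higher and 0 lower, with a median of 0.5, and median scaling gave 11. This count rested on single arrays: it was 12 without SCI+Saline replicate 3, and 1 without SCI+Saline replicate 2 or 4 or without Sham+Saline replicate 1 or 3. Cd68, a lysosomal protein of macrophages, was at 7.24, 8.49, 7.3 and 8.76 in SCI+Saline and at 6.75, 5.54, 5.68 and 6.56 in Sham+Saline (log2 fold change 1.82, SE 0.32, adjusted p = 0.000319). The summed intensity of these markers, at 2009 to 9796 and 2573 to 5456, overlapped. T and B lymphocyte markers were called in 0 of 5 kept genes, and Cd3e, Cd3g, Cd3d, Cd4 and Cd8a were not detected on the saline arrays.

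Chemokines and cytokines were higher in 5 of 23 kept members and lower in 2, with a median of 0.36; median scaling gave 10 and 2, and 8 were higher without SCI+Saline replicate 3. Cxcl10, a chemokine for T cells, was not detected on any Sham+Saline array and its level exceeded theirs at least 3.49-fold (log2 fold change 2.26, SE 0.16, adjusted p = 1.04e-08). Its SCI+Saline values, at 6.67, 6.89, 6.23 and 6.54, were close to each other. The monocyte chemokines spread more widely. Ccl7 was at 8.16, 9.68, 6.52 and 9.59 in SCI+Saline and at 6.5, 4.94, 6.32 and 5.46 in Sham+Saline (log2 fold change 2.68, SE 0.5, adjusted p = 0.000487), and SCI+Saline replicate 3 lay barely above the highest Sham+Saline value. Ccl2 was detected on 3 SCI+Saline arrays and on no Sham+Saline array, and its level exceeded theirs at least 3.02-fold (log2 fold change 2.04, SE 0.45, adjusted p = 0.00209). Cxcl12, a chemokine of stromal cells and endothelium, was lower at -1.64, and Il15, a cytokine made by muscle, was lower at -1.6. Il1b (0.3) and Osm (0.15) did not pass the test.

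No gene of the interferon-stimulated list was called higher. Cxcl10, which was higher at 2.26, was counted with the chemokines and not in this list. Of 23 kept members 6 were lower and 0 higher, with a median of -0.34. Median scaling gave 1 lower, 2 higher and a median of 0.01, so the sign of the median depended on the scaling. Under median scaling it still lay below the 0.17 of all probes. Gbp3, a GTPase that interferon induces, was lower at -1.2. Complement had 1 lower and 0 higher of 13 kept genes, at a median of 0.07, where median scaling gave 0 lower and 4 higher. MHC class II had 1 higher, Ctss at 1.43, a lysosomal protease for antigen processing, of 8 kept genes, at a median of -0.09; median scaling gave 2 higher at a median of 0.26. Cell cycle genes had 2 higher and 2 lower of 20 kept, at a median of 0.11: Pcna, the DNA clamp, was at 1.7 and Rrm2 at 0.81, while Mcm2, a replication helicase subunit, was lower at -1.14 and Rrm1 at -0.49. Median scaling gave 3 higher and 1 lower, and Rrm1 was not called there (-0.1, adjusted p = 0.776). The lower count was 5 without SCI+Saline replicate 4, and the higher count was 4 without Sham+Saline replicate 4. Leaving out any saline array other than SCI+Saline replicate 4 or Sham+Saline replicate 2 lost the call of Rrm1. Altogether 13 of 27 alternatives lost it.

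Schwann cell markers were lower in 2 of 7 kept genes and higher in 0, at a median of -0.59, while median scaling gave 0 and 1, at a median of -0.1. Tendon and cartilage markers had 1 higher of 5 kept: Scx (scleraxis), the transcription factor of tendon, was at 9.85, 9.42, 9.29 and 9.51 in SCI+Saline and at 6.74, 6.37, 6.27 and 6.59 in Sham+Saline (log2 fold change 3.03, SE 0.15, adjusted p = 1.02e-10). The tendon genes Tnmd and Thbs4 were not detected on the saline arrays, and Comp was at -0.07 and Fmod at -0.23, neither called. Erythroid markers had 0 called of 5 kept, or 1 higher under median scaling, and adipocyte markers 1 lower of 7, leptin (Lep) at -1.44, where median scaling gave 1 lower and 1 higher.

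Leading genes outside the lists were as separate. Cpne2, a copine that binds membranes when calcium rises, was at 10.92, 10.89, 10.7 and 10.48 in SCI+Saline and at 6.66, 7.1, 6.83 and 6.88 in Sham+Saline (log2 fold change 3.88, SE 0.19, adjusted p = 7.41e-11). Tmem100, a membrane protein that BMP signals induce in endothelium, was at 10.32, 10.25, 10.18 and 10.44 in SCI+Saline and at 7.35, 7.19, 7.18 and 7.46 in Sham+Saline (log2 fold change 3, SE 0.17, adjusted p = 6.13e-10). Aif1l, an actin-bundling protein, was at 9.95, 9.51, 10.15 and 9.32 in SCI+Saline and at 7.19, 7.18, 6.92 and 6.36 in Sham+Saline (log2 fold change 2.82, SE 0.2, adjusted p = 1.06e-08). Chil1, a chitinase-like secreted glycoprotein, was at 7.83, 7.73, 7.22 and 8.05 in SCI+Saline and at 4.51, 4.84, 4.28 and 5.79 in Sham+Saline, and 1 Sham+Saline array detected it (log2 fold change 2.86, SE 0.25, adjusted p = 1.67e-07).

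The same surgery was also measured in muscle that received CDTX, with 3 SCI+CDTX arrays (replicate 2 was left out by the authors) and 4 Sham+CDTX arrays. The saline and the CDTX comparison share no array but they compare the same 2 slides. Of the 30 leading genes of saline muscle 28 had the same sign in CDTX muscle, the exceptions being Ptprs at 0.4 and Spon2 at 0.06. The share of all genes with the same sign in both muscles was not counted, so 28 of 30 only describes the leading genes. These genes were chosen for the size of their change in saline muscle, which is one part of the difference between the muscles, so their differences are a description and were not counted against those of other genes. Myod1 rose in saline muscle and was at -0.07 in CDTX muscle (difference 2.69, adjusted p = 3.31e-05). Of the leading genes, Chrng was at 0.63 there and Aif1l at 0.04. Mettl21c was lower in both, at -4.12 in CDTX muscle.

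Among all genes 16.4% were higher and 15.8% lower in CDTX muscle, and the difference between the muscles was called in 25.5% (limma interaction contrast). Of the 27 proteasome subunits 10 were higher and 2 lower in CDTX muscle, at a median of 0.26, and the difference was called in 16. In CDTX muscle 6 of 14 endothelial markers were higher and 1 lower, at a median of 0.28, and the difference was called in 9. Vwf was at 1.3 there (difference -2.44, adjusted p = 2.41e-05). Fbxo32, Hdac4 and Hspb7 were higher in both, at 1.68, 1.1 and 1.92 in CDTX muscle, and the differences were not called (adjusted p = 0.365, 0.317 and 0.384). A probe difference score was taken from the difference between the 2 brightest probes of each of 1535 genes, centred over the 16 arrays. The score is the position of an array on the main axis of these differences, which held 41.2% of their variance. Its sign is arbitrary and was set to make Sham+CDTX positive, so it does not measure how strongly probes disagree. It was -0.24 to -0.03 in SCI+Saline, -0.21 to -0.11 in Sham+Saline and 0.35 to 0.4 in Sham+CDTX, while the SCI+CDTX arrays used were at -0.17, -0.2 and -0.24 and the one left out was at 0.32. Among the arrays used the score therefore set Sham+CDTX apart from every other group, and it nearly coincided with the difference between the muscles. The difference was called in 3483 probes as reported and in 1532 with all 16 arrays and no score. With the score as a covariate it was called in 104 probes with all 16 arrays and in 1 with the 15 arrays, where its median standard error went from 0.25 to 0.79 log2. With these arrays the score and the difference can hardly be told apart. The SCI effect in saline muscle was called in 4309 and 4081 probes in these 2 fits, in place of 4350.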

How the data were processed

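Hamstring muscle RNA of 16 samples was hybridised to Illumina expression BeadChips, 4 samples to a group. Raw mean bead intensity, not normalized and with no background taken off, was deposited for 25697 probes and every array, per the file headers. A detection p-value and a bead number stand beside each deposited intensity. GenomeStudio 2011.1 is named in the submitters' processing notes and its gene expression module 1.9.0 in the file headers. The authors also deposited group mean intensity after average normalization and background subtraction, used here only as an alternative. The number of per-sample columns left unused was 0.

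SCI+CDTX replicate 2, which the authors excluded, was left out. The other 15 arrays were background-corrected from the detection p-values with an offset of 16, quantile normalized and set to log2 in limma 3.58.1 under R 4.3.3 (package data.table, version 1.17.8). The offset shrinks the fold changes of dim probes. A filter required a detection p under 0.05 on 3 or more arrays, and 14763 probes of 10952 genes passed. A model with 4 group means was fitted with lmFit and eBayes to all of them, and p-values were adjusted over all of them by the Benjamini-Hochberg method. Adjusted p-values of genes come from limma, and those of summed marker intensities come from exact permutation tests over the 12 marker lists. The fit was tested on simulated data. No slide term could be fitted. For a probe that no array of a group detected, the fold is written as "at least" and computed against each array's lowest detected signal, or the probe's own where that was higher.

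Symbols were updated to RefSeq through Entrez identifiers for 23681 probes. No genome build is named for the probes, so no probe positions are given. The genes named are the 15 highest and 15 lowest changes among called genes whose groups did not overlap, and in each of 34 lists up to 5 called members with the largest change plus preset genes. Other list members and the markers of 12 cell type lists that are named singly were chosen after their values were seen. The comparison, the members, the lists and the naming rule were chosen with earlier results of these data known. Alternatives were all 16 arrays, median scaling, no background correction, no or a stricter detection filter, a trended and robust eBayes, the replicate number as a block, a probe difference score as a covariate (with all 16 arrays and, chosen after seeing the data, with 15), only the saline arrays in the fit or in the normalization, the normalized values of the authors, and each array left out in turn. Values of some genes that count in the lists are not reported here.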

Additional observations from a re-analysis of the deposited data

Results flagged for a closer look

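Among the 30 leading genes, 60 sets of 4 arrays were examined for an array far from the other 3 of its group, which chance gives in about 1 of 20 sets. Slpi was at 7.37 log2 in Sham+Saline replicate 4 and between 4.28 and 4.52 in the other Sham+Saline arrays. Atp1b4 was at 6.43 in Sham+Saline replicate 2 and between 7.17 and 7.27 in the others.

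The SCI effect in saline muscle differed from that in CDTX muscle, by the limma interaction contrast, in 22 of these genes, which were chosen for their effect in saline muscle, so the count is inflated by that choice. Among genes higher after SCI, the difference (saline minus CDTX, log2) was 4.34 for Ankrd1, 3.19 for Rrad, 3.06 for Chrna9, 2.78 for Aif1l, 2.47 for Slpi, 2.42 for Chrng, 2.3 for Cpne2 and 2.26 for Krt18. It was 2.24 for Krt8, 2.15 for Mt1, 2.11 for Myog, 1.48 for Chil1 and 1.32 for Mt2. Among genes lower after SCI it was -2.85 for Ptprs, -2.46 for Spon2, -2.32 for Kcnc1, -1.95 for Tmem25, -1.86 for Lynx1, -1.78 for Rsph1, -0.98 for Nrep and -0.89 for Frat2. For Mettl21c it was 0.69, the fall being larger in CDTX muscle. Of these 22 differences 20 were called with all 16 arrays, 6 with all 16 arrays and the probe difference score, and 0 with the score and the 15 arrays.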

How the results depend on the processing

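Surgery and slide cannot be told apart in any of these fits, and 4 arrays a group limit the precision. The number of called probes stayed within 1.5 times of 4350 under every alternative with a test. With 1 array left out it ran from 3661 (without SCI+Saline replicate 2) to 4500 (without SCI+Saline replicate 4), with 1872 to 2286 higher and 1789 to 2214 lower. Probes called at 1 log2 or more ran from 936 to 1190 and the interaction from 2753 to 3846. Deviations from the group means correlated at -0.06, 0.05, 0.12 and 0.38 between same-numbered arrays. SCI+Saline replicates 3 and 4 matched best with the Sham+Saline array of the same number, and replicates 1 and 2 did not. These few values cannot settle whether the samples were paired. With the replicate block 4215 probes were called. Median scaling gave 4436 higher and 696 lower probes, with 1609 called at 1 log2 or more, against 389 without background correction and 1042 as reported. The interaction was called in 1532 probes with all 16 arrays, in 104 with these and the probe difference score, and in 1 with the score and the 15 arrays, a setting chosen after seeing the data. By the authors' normalized group means, 4349 of 4350 called probes had the same direction.

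Of 217 named genes 184 were called, 144 of these kept call and direction under every alternative that tested them, and 0 called genes reversed. Some genes did not pass the filter of every alternative, and the authors' group means gave a direction only. Genes that were not called changed sign: under median scaling Cd74 (0.15), Hspa8 (0.1), Igf1 (0.41), Mmp2 (0.45), Socs3 (0.32), Tnnt1 (0.18) and Vim (0.36), and with the probe score and all 16 arrays Igf1 (0.02), with the score and 15 arrays Socs3 (0.01) and Adamts1 (0 after rounding), and by the authors' group means Myh4 (-0.16), Igf1 (0.08), Mmp2 (0.05), Socs3 (0.15) and Vim (0.06). With 1 array left out in turn, the values of such genes ran from -0.39 to 0.23 for Socs3, -0.32 to 0.05 for Vim, -0.15 to 0.06 for Igf1, -0.5 to 0.08 for Irf7, -0.22 to 0.11 for Mmp2, -0.08 to 0.2 for Col3a1, -0.04 to 0.3 for Osm and -0.01 to 0.15 for Adamts1.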
